A study of Mus musculus with 6 samples.

Results

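Heterotrimeric G proteins carry the light signal inside retinal neurons, and 10 of their subunit genes were examined here in mouse retina with and without Unc119. The genes were the transducin alpha subunits Gnat1 and Gnat2, the 5 G beta genes Gnb1 to Gnb5, and the G gamma genes Gngt1, Gngt2 and Gng13. They were chosen by gene symbol for their function, with the rise of Gnb3 in these data already known. All 10 were found among the 24346 symbols listed for each library. The samples were 3 libraries from Unc119-/- retina (knockout) and 3 from Unc119+/+ retina (wild type), each from the mouse retina. Neither the knockout allele nor the age, strain or number of the mice per library is stated by the sources used here. The labels number the libraries 1 to 3 in each genotype and name no separate animals, so p-values measure the spread between these libraries. Both sexes occur among the libraries of each genotype, so each genotype drew on more than 1 mouse, but how many is not stated.

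Transducin is the G protein of photoreceptors. An activated visual pigment loads its alpha subunit with GTP, the alpha subunit separates from the beta-gamma pair, and it switches on the phosphodiesterase that breaks down cGMP. Rods use Gnat1 with Gnb1 and Gngt1, and cones use Gnat2 with Gnb3 and Gngt2. ON bipolar cells, which receive the photoreceptor signal through a metabotropic glutamate receptor, use the alpha subunit Gnao1 and also contain Gnb3 and Gng13. Gnb5 differs from the other beta subunits in that it pairs with RGS proteins, which speed the shutoff of alpha subunits. UNC119 binds the fatty acid on the first residues of transducin alpha and keeps the protein soluble while it moves between cell compartments.

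The gamma subunits anchor the beta-gamma pair to membranes by a lipid on a cysteine close to their last residue. Its codon is in capitals in the last 30 coding bases, stop codon included, read 5′ to 3′ from the GENCODE M21 transcripts, to show how the rod, cone and ON bipolar gamma genes differ there.
Gngt1: gaactcaaaggaggcTGTgtgatttcatag
Gngt2: aaggagaaaggcactTGTgtgctaagctga
Gng13: gtagagaaggccaagTGCaccatcctatga
On GRCm38, the build named mm10, these stretches lie at chr6:3996751-3996780 (Gngt1, plus strand), chr11:95845579-95845608 (Gngt2, plus strand) and chr17:25719003-25719032 (Gng13, plus strand).

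All values are FPKM, fragments scaled by transcript length and library size, so levels of different genes are compared per length. A change is knockout minus wild type on the log2(FPKM + 1) scale from limma, and a gene was called at a Benjamini-Hochberg adjusted p under 0.05 over the 14176 genes with a mean of at least 0.5 FPKM. All 10 genes passed that filter on low values. Unc119 itself measured 510, 460 and 449 FPKM in the 3 knockout libraries and 1190.5, 1187 and 1206 FPKM in the wild-type libraries. Transcript from the locus thus remained in the knockout at a lower level (change −1.34, SE 0.06, limma adjusted p = 6.6e-05). The number of fragments is unknown, but relative depth read from genes of low expression was 0.931 to 0.964 in knockout and 0.763 to 1 in wild-type libraries. Xist and Y-linked genes marked knockout replicate 1 and wild-type replicates 1 and 2 as male and the other 3 libraries as female. Summed over 20 lens genes, the libraries held 288, 708 and 12033 FPKM in knockout replicates 1, 2 and 3 and 154, 840 and 0.75 FPKM in wild-type replicates 1, 2 and 3, so knockout replicate 3 stood apart in lens RNA.

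Gnb3, the beta subunit of cones and ON bipolar cells, was the only one of the 10 genes that changed past the threshold. It measured 293, 308 and 309 FPKM in knockout replicates 1, 2 and 3, against 178, 191 and 187 FPKM in wild-type replicates 1, 2 and 3. The lowest knockout library was thus well above the highest wild-type library, and the libraries of each genotype lay close together. The means were 303 ± 9.12 FPKM in the knockout and 185 ± 6.40 FPKM in wild type (SD, n = 3 each), a ratio of 1.64. The change was 0.71 with a standard error of 0.04 and a 95% interval from 0.60 to 0.81 (limma adjusted p = 0.00119). Of all genes tested 0.205% were called higher and 0.0282% lower. The exact two-sided permutation test of the 6 values gave p = 0.1, the smallest that 3 libraries against 3 allow. The libraries of both sexes showed it, with a change of 0.66 in males (1 knockout against 2 wild-type libraries) and 0.72 in females (2 against 1). Without knockout replicate 3, the library rich in lens RNA, the change was 0.69 (limma adjusted p = 0.00847).

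**Figure D1:**
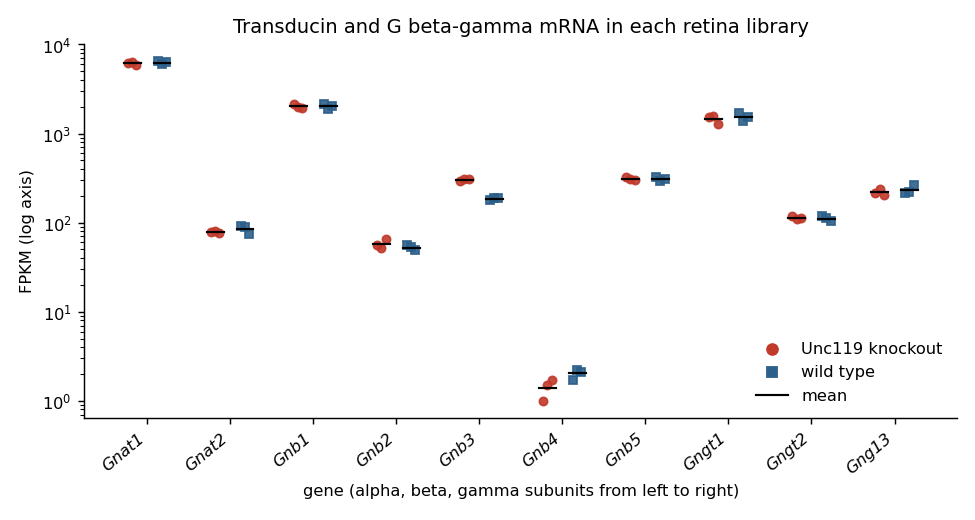
FPKM on a log axis for each of the 10 subunit genes, with 1 point per library, knockout in red on the left of each pair and wild type in blue on the right, and a black bar at the mean. Gnb3 is separated between genotypes (303 against 185 FPKM on average), Gnb4 lies near 1 to 2 FPKM, and the genotypes of the other 8 genes overlap.

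Among the 29 genes called higher in the knockout retina, Gnb3 was the second most abundant, behind Hk1 at a mean of 251 FPKM over the 6 libraries against 244 FPKM for Gnb3. Its change ranked 19 among those 29 by size, and its p ranked 4 among the 14176 genes tested. Since these are bulk samples, a higher level per cell and a larger share of cells that express the gene cannot be told apart.

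The other 4 beta genes did not share the rise. Gnb1, the rod beta subunit, measured 2123, 1993 and 1947 FPKM in knockout replicates 1 to 3 and 2153, 1888 and 2022 FPKM in wild-type replicates 1 to 3. The genotypes overlapped and their means were 2021 ± 91.3 and 2021 ± 132 FPKM (SD, n = 3 each), a change of 0.00 with a 95% interval from −0.15 to 0.15 (limma adjusted p = 0.997). Gnb5, the partner of the RGS proteins, was level to a similar degree, at 326, 309 and 301 FPKM in knockout and 326, 296 and 310 FPKM in wild-type libraries (change 0.01, interval −0.12 to 0.13, limma adjusted p = 0.982). Gnb2, a beta subunit found in most tissues, measured 56.1, 51.5 and 65.5 FPKM in knockout and 55.5, 52.8 and 48.9 FPKM in wild-type libraries. Its highest value was that of knockout replicate 3, and its change of 0.13 did not pass (interval −0.08 to 0.34, limma adjusted p = 0.690).

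Gnb4, another widely used beta subunit, was the scarcest of the 10 genes. It measured 0.992, 1.52 and 1.72 FPKM in knockout replicates 1 to 3 and 1.73, 2.25 and 2.12 FPKM in wild-type replicates 1 to 3. Each knockout value was below each wild-type value, but knockout replicate 3 and wild-type replicate 1 were nearly equal. The estimate of −0.34 did not pass (interval −0.70 to 0.02, limma adjusted p = 0.573). At this low level the pseudocount set its size, with −0.52 at a pseudocount of 0.1 and −0.55 at 0.01, and without knockout replicate 1 it was −0.21. None of these passed either. Of the 10 genes, Gnb3 and Gnb4 had genotypes without overlap, compared with 15.9% of all genes tested (7.83% higher, as Gnb3, and 8.04% lower, as Gnb4).

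The share of beta mRNA held by each gene followed from these levels. Gnb3 held 10.5%, 11.6% and 11.8% of the summed beta FPKM in knockout replicates 1 to 3, against 6.57%, 7.86% and 7.28% in wild-type replicates 1 to 3. The shares averaged 11.3% ± 0.707 in the knockout and 7.24% ± 0.643 in wild type (SD, n = 3 each), without overlap between genotypes. The exact two-sided permutation test gave p = 0.1, the smallest possible, and 0.267 after adjustment over the 8 shares and ratios tested. Gnb1 held 75.0% ± 0.835 in the knockout and 78.6% ± 0.802 in wild type, and Gnb5 held 11.6% ± 0.0924 and 12.1% ± 0.0782 (SD, n = 3 each genotype). The summed beta FPKM was 2695.5 ± 91.7 in the knockout and 2571.5 ± 142 in wild type, with overlapping libraries.

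The alpha subunits were close to level. Gnat1, the rod alpha subunit, was the second most abundant of all genes by mean FPKM. It measured 6189, 6322 and 5918 FPKM in knockout replicates 1 to 3 and 6527.5, 6014 and 6289 FPKM in wild-type replicates 1 to 3. The genotypes overlapped, and the change of −0.03 had a 95% interval from −0.18 to 0.11 (limma adjusted p = 0.903). Gnat2, the cone alpha subunit, measured 79.5, 81.0 and 76.4 FPKM in knockout and 91.0, 88.7 and 75.3 FPKM in wild-type libraries. The 2 highest values were those of wild-type replicates 1 and 2 and the lowest that of wild-type replicate 3, so wild type spanned the knockout values. The change of −0.10 did not pass (interval −0.27 to 0.07, limma adjusted p = 0.700). Gnat2 made up 1.27% ± 0.0052 of transducin alpha FPKM in the knockout and 1.34% ± 0.139 in wild type (SD, n = 3 each, exact permutation p = 0.4).

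The gamma subunits gave no call either. Gngt1, the rod gamma subunit, measured 1516, 1591 and 1275 FPKM in knockout replicates 1 to 3 and 1718, 1390 and 1528 FPKM in wild-type replicates 1 to 3. Its lowest value was that of knockout replicate 3, and the genotypes overlapped (change −0.08, interval −0.32 to 0.16, limma adjusted p = 0.830). Gngt2, the cone gamma subunit, measured 120, 110 and 112 FPKM in knockout and 117.5, 112 and 104 FPKM in wild-type libraries (change 0.04, interval −0.09 to 0.17, limma adjusted p = 0.855). Gng13, the gamma subunit of ON bipolar cells, measured 213, 238 and 205 FPKM in knockout and 213, 221 and 264 FPKM in wild-type libraries. The highest of these was wild-type replicate 3, and the change of −0.08 did not pass (interval −0.29 to 0.12, limma adjusted p = 0.794).

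**Figure D2:**
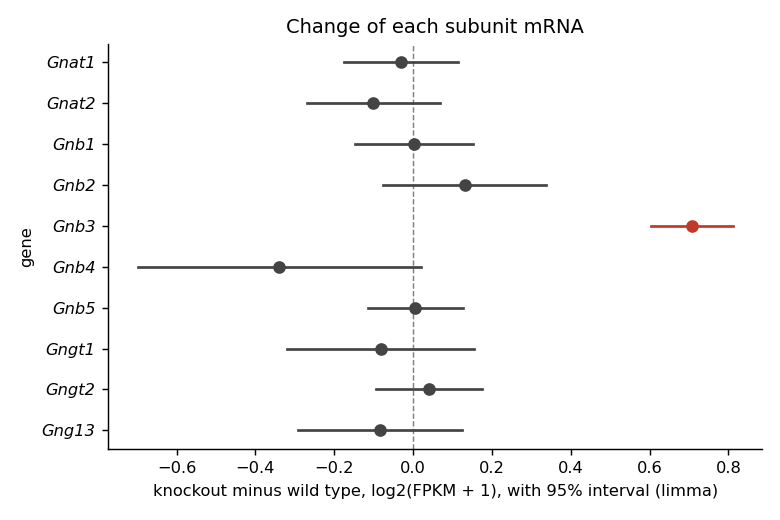
Change of each subunit gene, knockout minus wild type on the log2(FPKM + 1) scale (x axis), as a point with its 95% interval from limma, for the 10 genes down the page. The interval of Gnb3 runs from 0.60 to 0.81 and lies to the right of the other 9 intervals, of which that of Gnb2 reaches highest, to 0.34.

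Whether Gnb3 moved differently from the others was tested directly, as the log2 ratio of Gnb3 to each of the other 9 genes within a library. The change of Gnb3 exceeded that of its cone partners Gnat2 by 0.81 (SE 0.11) and Gngt2 by 0.67 (SE 0.10). It exceeded that of its ON bipolar partner Gng13 by 0.79 (SE 0.11). Against the beta genes the excess was 0.71 for Gnb1 (SE 0.10), 0.58 for Gnb2 (SE 0.12), 0.70 for Gnb5 (SE 0.09) and 1.05 for Gnb4 (SE 0.12). Against the rod genes Gnat1 and Gngt1 it was 0.74 (SE 0.07) and 0.79 (SE 0.16). In each of the 9 comparisons all 3 knockout libraries had a higher ratio than all 3 wild-type libraries, and each exact two-sided permutation test gave p = 0.1, the smallest possible, also after adjustment over the 9. The Gnb3 values enter all 9 comparisons, so these are not 9 separate pieces of evidence. Gnb3 was set against the others with its rise in these libraries already known, so part of the excess follows from that choice. Estimates for the other 9 genes ran from −0.34 to 0.13, with 4 above and 5 below 0.

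Within a library, Gnb3 stood at 3.68, 3.81 and 4.04 times Gnat2 in knockout replicates 1 to 3 and at 1.96, 2.15 and 2.48 times in wild-type replicates 1 to 3. Set against Gng13, it stood at 1.38, 1.30 and 1.51 in knockout and at 0.838, 0.865 and 0.709 in wild-type libraries. Gnb3 was thus the more abundant of that pair in each knockout library and the less abundant in each wild-type library. Each of these ratios had an exact permutation p of 0.1 and 0.267 adjusted over the 8 shares and ratios. The ratio of the cone pair Gngt2 to Gnat2 averaged 1.45 ± 0.0796 in the knockout and 1.31 ± 0.0652 in wild type, with overlap (SD, n = 3 each, exact permutation p = 0.2). Between the rod subunit genes, measured in bulk retina, the ratios were level, at 0.329 ± 0.0139 and 0.322 ± 0.00791 for Gnb1 to Gnat1 (exact permutation p = 0.5) and at 0.237 ± 0.0193 and 0.246 ± 0.0162 for Gngt1 to Gnat1 (exact permutation p = 0.7), knockout before wild type (SD, n = 3 each).

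**Figure D3:**
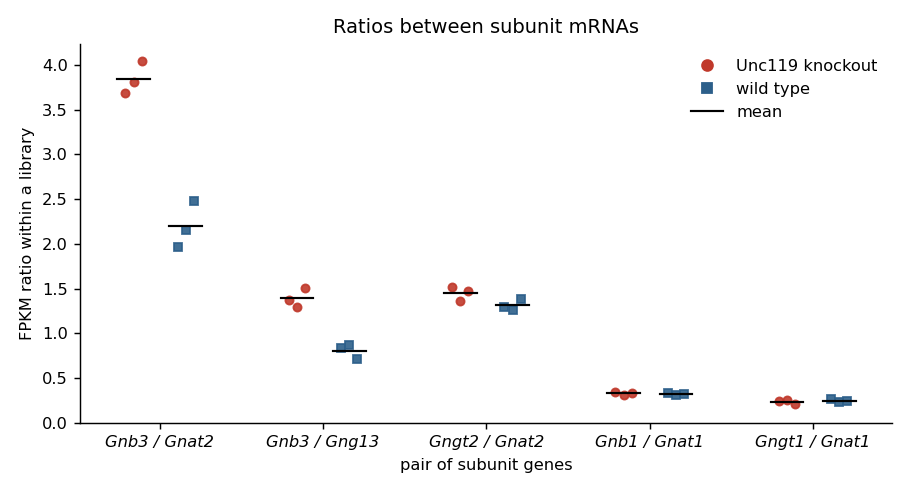
FPKM ratio of 5 pairs of subunit genes within each library, knockout in red left of wild type in blue, with bars at the means. The ratios of Gnb3 to Gnat2 (3.84 against 2.199 on average) and of Gnb3 to Gng13 (1.39 against 0.804) separate the genotypes, and the other 3 ratios overlap.

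The order of levels in knockout retina was Gnat1, Gnb1, Gngt1, Gnb5, Gnb3, Gng13, Gngt2, Gnat2, Gnb2 and Gnb4 by mean FPKM. In wild type Gng13 came before Gnb3 and the rest of the order was the same. Gnb5 and Gnb3 could not be ordered in the knockout, where their libraries ran from 301 to 326 and from 293 to 309 FPKM. In wild type each library of Gnb5 was above each library of Gnb3.

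The other G protein genes gave no call, where 0.233% of all genes tested were called in either direction. Of 12 tested alpha genes other than transducin, 0 were called (median change 0.02, against −0.0017 for all genes tested), and at an unadjusted limma p under 0.05 there were Gnai2 and Gnaz, compared with 9% of all genes. The inhibitory alpha gene Gnai2 measured 78.3 ± 2.64 FPKM in the knockout and 67.5 ± 2.21 FPKM in wild type (SD, n = 3 each, change 0.21, limma adjusted p = 0.245), without overlap. Gnaz, an alpha gene of neurons, went the other way at 28.3 ± 1.89 and 33.3 ± 0.420 FPKM (change −0.23, limma adjusted p = 0.327). The most abundant, the stimulatory alpha gene Gnas, measured 401 ± 7.98 and 397 ± 8.52 FPKM, and Gnao1, the alpha subunit of ON bipolar signalling, 135 ± 3.31 and 143 ± 3.70 FPKM (knockout and wild type, SD, n = 3 each). Of the 12, only Gnai2 had all knockout libraries above all wild-type libraries, compared with 7.83% of all genes tested. In 2, Gnaz and Gnao1, all were below, compared with 8.04%.

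Of 8 tested gamma genes outside the 3 described above, 0 were called (median change 0.06), compared with 0.233% of all genes tested. At an unadjusted limma p under 0.05 there was Gng5 alone, compared with 9% of all genes. In 2, Gng5 and Gng12, all knockout libraries were above all wild-type libraries, compared with 7.83% of all genes tested. In 1, Gng4, all were below, compared with 8.04%. Gng5, a widely expressed gamma subunit, measured 43.9, 40.5 and 58.1 FPKM in knockout replicates 1 to 3 and 32.3, 33.3 and 35.8 FPKM in wild-type replicates 1 to 3 (change 0.47, limma adjusted p = 0.341). Its highest value was in knockout replicate 3, which also had the highest lens sum (12033 FPKM), and the part of lens RNA in this value was not tested. Gng3, the most abundant of these 8 genes and typical of neurons, measured 52.8 ± 0.556 FPKM in the knockout and 55.0 ± 4.82 FPKM in wild type (SD, n = 3 each).

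The partners and regulators of beta-gamma, 38 listed genes of which 37 were tested, had 1 call, Unc119 itself (median change −0.02). Phosducin, encoded by Pdc, binds photoreceptor beta-gamma. It measured 1283, 1282 and 1248 FPKM in knockout replicates 1 to 3 and 1723, 1282 and 1749 FPKM in wild-type replicates 1 to 3. The knockout libraries lay together at the level of wild-type replicate 2, below the other 2 wild-type libraries (change −0.30, limma adjusted p = 0.5005). Rgs9, which with Gnb5 forms the shutoff complex of photoreceptors, measured 315 ± 12.9 and 308 ± 34.0 FPKM, and its anchor Rgs9bp 153 ± 8.22 and 166 ± 7.12 FPKM (knockout and wild type, SD, n = 3 each). Rgs11, a partner of Gnb5 in ON bipolar cells, measured 26.6 ± 1.60 FPKM in the knockout and 22.6 ± 2.84 FPKM in wild type (change 0.23, limma adjusted p = 0.526). The related Rgs7 measured 19.0 ± 1.80 and 21.2 ± 1.63 FPKM (change −0.15, limma adjusted p = 0.640), so the RGS partners of Gnb5 gave estimates in both directions and no call.

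Markers of the cells that use Gnb3 gave no call, where 0.233% of all genes tested were called in either direction. Of 14 tested cone genes, 0 were called and 1 had an estimate above 0 (median change −0.11), compared with 49.3% of all genes tested above 0. Named among them were Opn1sw, the short-wavelength cone opsin, at 194 ± 6.03 FPKM in the knockout and 216 ± 4.22 FPKM in wild type (change −0.16, limma adjusted p = 0.355), and Pde6h, the cone phosphodiesterase inhibitor, at 195 ± 12.2 and 226 ± 21.1 FPKM (SD, n = 3 each, change −0.21, limma adjusted p = 0.499). The summed cone list held 747 to 801 FPKM in knockout and 813 to 863 FPKM in wild-type libraries, without overlap. In 3 of the 14 cone genes, Opn1sw among them, all knockout libraries were below all wild-type libraries, compared with 8.04% of all genes tested. In 0 of the 14 all were above, compared with 7.83%. Of 14 ON bipolar genes, 0 were called and 4 had an estimate above 0 (median −0.05), with sums of 679 to 722 FPKM in knockout and 699 to 740 FPKM in wild-type libraries. Among them were Pcp2, a regulator of Gnao1, at 211 ± 12.9 and 195 ± 8.0 FPKM, and the homeobox gene Sebox at 51.6 ± 3.06 and 56.3 ± 1.60 FPKM (knockout and wild type, SD, n = 3 each). Of the 14 ON bipolar genes, 1 had all knockout libraries above all wild-type libraries and 2, Sebox among them, had all below.

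Other retinal cell types gave no call either, where 0.233% of all genes tested were called, so 0 is common for short lists. The 14 rod genes had a median change of 0.00, with sums of 24182 to 25386 FPKM in knockout and 23426 to 25238 FPKM in wild-type libraries, and the smallest p among them was that of the rod channel subunit Cngb1 at 310 ± 9.67 and 336 ± 9.29 FPKM (change −0.11, limma adjusted p = 0.513). The 9 other bipolar genes had a median of −0.02, with Otx2, a photoreceptor and bipolar transcription factor, at 96.6 ± 3.70 and 96.9 ± 2.71 FPKM and Vsx1 at 8.88 ± 0.919 and 9.97 ± 1.08 FPKM. The 9 Mueller glia genes had a median of 0.05, with the glutamine synthetase gene Glul at 793 ± 7.56 and 858 ± 31.6 FPKM and the secreted chaperone gene Clu at 405 ± 117 and 253 ± 6.11 FPKM, highest in knockout replicate 3 at 539 FPKM. They were not uniformly level. Of the 9, 4 had all knockout libraries above all wild-type libraries, Clu among them, compared with 7.83% of all genes tested. In 2, Glul among them, all were below, compared with 8.04%. Of tissues next to the retina, 20 lens genes had a median of 2.41 (Cryaa 1855 ± 2981 and 94.96 ± 133 FPKM, Cryba4 119 ± 169 and 10.5 ± 14.2 FPKM), 10 pigment epithelium genes 0.36 (Ttr 26.8 ± 13.5 and 20.7 ± 6.15 FPKM, Pmel 7.53 ± 8.99 and 1.06 ± 0.138 FPKM), and the tested red cell gene Hba-a1 measured 4.73 ± 1.58 and 4.14 ± 1.81 FPKM. Each pair gives knockout and then wild type as mean ± SD with n = 3 per genotype, and none of these lists held a gene past the threshold.

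**Figure D4:**
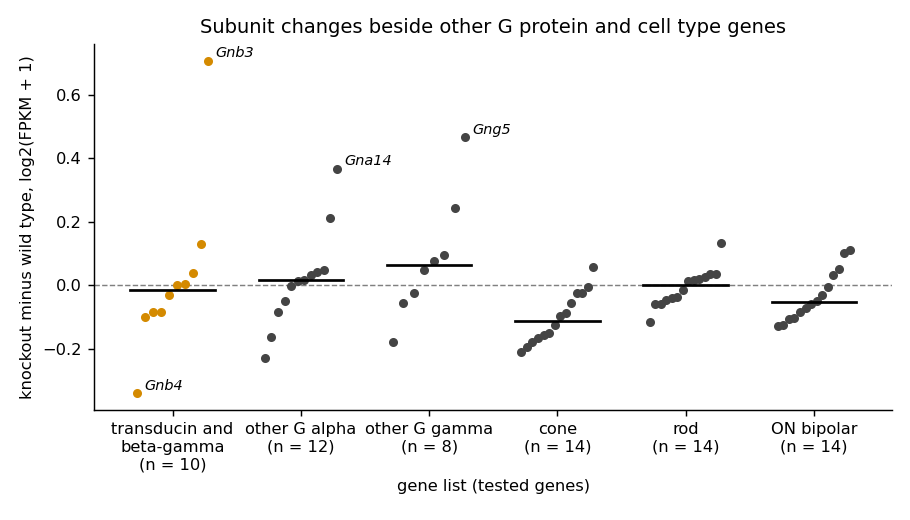
Change of each tested gene, knockout minus wild type on the log2(FPKM + 1) scale (y axis), for the 10 subunit genes and for the lists of other G alpha, other G gamma, cone, rod and ON bipolar genes, with black bars at the medians. Gnb3 at 0.71 lies above the genes of each other list shown, and the cone list has the lowest median at −0.11.

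Gnb3 lies on chromosome 6, 124834240 to 124840275 on the minus strand of GRCm38 (ENSMUSG00000023439.11, protein coding), and overlaps no other annotated gene. Its nearest neighbours are Cdca3, a cell cycle gene on the opposite strand 538 bases away, and P3h3, a collagen prolyl hydroxylase gene on the same strand 813 bases away. Cdca3 measured 1.14, 1.77 and 2.21 FPKM in knockout and 1.39, 2.03 and 1.44 FPKM in wild-type libraries (change 0.03, limma adjusted p = 0.969). P3h3 measured 10.9, 12.3 and 11.6 FPKM in knockout and 10.2, 10.4 and 10.6 FPKM in wild-type libraries (change 0.14, limma adjusted p = 0.583). The interval of Gnb3 (0.60 to 0.81) lay above those of Cdca3 (−0.39 to 0.45) and P3h3 (−0.02 to 0.30). Cdca3 had a mean of only 1.66 FPKM, where the pseudocount understates changes. In P3h3 all knockout libraries were above all wild-type libraries.

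Genes around Gnb3 leaned the same way by smaller amounts. Within 100 kb, 14 genes were tested and 0 were called, compared with 0.233% of all genes tested. All 14 had an estimate above 0, compared with 49.3% of all genes tested, from 0.01 to 0.45 with a median of 0.15. In 8 of the 14 the lowest knockout library exceeded the highest wild-type library, compared with 7.83% of all genes tested in that direction. Among them were Tpi1, a glycolytic enzyme gene, at 470, 504 and 489 FPKM in knockout and 448, 424.5 and 442 FPKM in wild-type libraries (change 0.15, limma adjusted p = 0.399), and Gpr162, an orphan receptor gene, at 61.3, 56.5 and 59.6 FPKM in knockout and 51.6, 54.15 and 53.4 FPKM in wild-type libraries (change 0.15, limma adjusted p = 0.436). Eno2, the neuronal enolase gene, was level at 291, 284 and 283 FPKM in knockout and 281, 283 and 287 FPKM in wild-type libraries (change 0.01). At the low end, Ptpn6, a phosphatase gene of blood cells and microglia, measured 0.726, 0.729 and 1.54 FPKM in knockout and 0.566, 0.309 and 0.460 FPKM in wild-type libraries (change 0.45, limma adjusted p = 0.555). Unc119 lies on another chromosome, 11. The sources used here do not state whether both genotypes carry this stretch of chromosome 6 from the same mouse strain, and the part of strain in the values of Gnb3 and its neighbours was not tested.

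**Figure D5:**
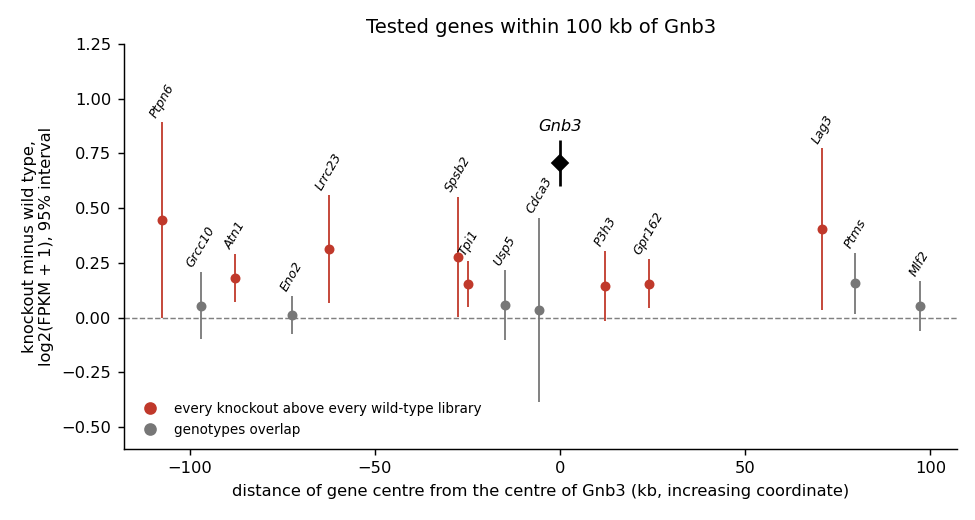
Change of the 14 tested genes within 100 kb of Gnb3, knockout minus wild type on the log2(FPKM + 1) scale with 95% intervals (y axis), by distance of the gene centre from the centre of Gnb3 in kb (x axis). Red marks the 8 genes whose knockout libraries all exceeded the wild-type libraries, grey the other 6, and the black diamond is Gnb3 at 0.71.

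The beta genes are related in sequence, and the longest stretches they share bear on whether a read can be placed. Over the coding sequence, Gnb3 was identical to Gnb1 at 76.0% of aligned bases, to Gnb2 at 76.3%, to Gnb4 at 72.9% and to Gnb5 at 64.9%. The longest run shared by the transcripts used was 20 bases with Gnb1, 32 bases with Gnb2, 24 bases with Gnb4 and 15 bases with Gnb5. Gnat2 and Gnat1 were identical at 74.1% of aligned coding bases, with a longest shared run of 23 bases. On the map, Gnb2 overlaps in part with Epo on the same strand (5116 shared bases). Epo was listed at 0 in all libraries but wild-type replicate 1 (0.318 FPKM). Gnb2 also holds Mir6418, listed at 0 in all 6. Gngt2 shares 5261 bases with Abi3 on the opposite strand, which measured 2.30 to 2.61 FPKM in knockout and 1.86 to 2.46 FPKM in wild-type libraries, and Gng13 shares 481 bases with Chtf18, at 3.20 to 3.59 FPKM in knockout and 2.93 to 4.63 FPKM in wild-type libraries. A pseudogene within Gnb1 and antisense genes over Gnb2, Gnb4 and Gnb5 have no value here. Whether strand was used in counting is not stated in the sources used here, so reads of such overlaps cannot be told apart.

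The genes whose profile over the 6 libraries was most like that of Gnb3 were Gckr, Ctss, Rnf144b, Fxyd1 and Junb. Likeness was the root mean square difference of the log2 deviations from the wild-type mean, and it ran from 0.08 for Gckr to 0.13 for Junb among 7294 other genes with a mean of at least 10 FPKM. Gckr, the glucokinase regulator gene, measured 58.3, 65.7 and 57.5 FPKM in knockout and 38.2, 40.2 and 38.1 FPKM in wild-type libraries (change 0.63, limma adjusted p = 0.0101). Ctss, the lysosomal protease cathepsin S gene, measured 15.3, 16.2 and 17.3 FPKM in knockout and 10.7, 9.91 and 11.0 FPKM in wild-type libraries (change 0.58, limma adjusted p = 0.0303). Rnf144b, Fxyd1 and Junb had changes of 0.63, 0.60 and 0.57 and were not called. As all of these genes were picked by likeness to Gnb3 in the same 6 libraries, changes near that of Gnb3 follow from the choice. Their p-values are therefore no separate evidence.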

How the data were processed

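Per the labels, RNA of mouse retina was extracted with TRIzol and sequenced from TruSeq stranded mRNA libraries. The authors deposited 1 FPKM value per gene symbol and library, a unit named in the file headers. Per the submitters' processing notes, TopHat2 2.1.1 and Cuffdiff 2.2.1 were used on mm10. Annotation, strand setting and scaling between libraries were not stated there. FPKM divides by transcript length and library size, so these are not counts and depth is known only relative to wild-type replicate 2, from genes of at most 0.3 FPKM (tolerance 0.015 log2 units). An exact 0 can be a failed estimate. No library pair held identical values.

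Two-sided limma tests (limma 3.58.1, R 4.3.3) set knockout against wild type on the log2(FPKM + 1) scale, letting the prior variance follow the mean, over the 14176 genes with a mean of at least 0.5 FPKM. The pseudocount understates changes of low genes. The fit was tested on simulated data. Shares and ratios were tested by exact permutation in Python 3.11.15 with scipy 1.17.1. Coordinates are from GENCODE M21 on GRCm38. Coding sequences were aligned with Biopython 1.88. Alternatives covered pseudocount, filter, scaling, replicate block, sex, variance prior, library weights and each library left out.

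The 10 genes and the 11 gene lists were chosen with earlier results of these data known, among them the rise of Gnb3. Named by rule were the 10 genes, Unc119, the called members of each list or else its most abundant member and that with the smallest p, the neighbours of Gnb3 and the 5 genes most like it. Other genes named were chosen after their values were seen. One gene the rule names is not reported here.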

Additional observations from a re-analysis of the deposited data

Results flagged for a closer look

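Gnat2 was flagged because all libraries of each sex moved one way and the sexes moved in opposite directions. In males the change was −0.17 on the log2(FPKM + 1) scale, with knockout replicate 1 at 79.5 FPKM below both wild-type libraries, at 91.0 and 88.7 FPKM. In females the change was 0.06, with both knockout libraries, at 81.0 and 76.4 FPKM, above the single wild-type library at 75.3 FPKM. The interaction of sex and genotype in limma was 0.24 (female change minus male change) and did not pass (limma adjusted p = 0.9998 over all genes tested). Males have 1 knockout library and females 1 wild-type library. The estimates of Gnb1 (0.07 in males, −0.04 in females) and Gnb5 (0.07 in males, −0.02 in females) also had opposite signs, but in males the knockout library of each lay between the wild-type libraries.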

How the results depend on the processing

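Gnb3 kept its direction and its call in all 17 refits, with changes of 0.68 to 0.73 and limma adjusted p of 0.0006045 to 0.0189. No other of the 10 genes was called in any of them, and Gnb4 fell out of the fit limited to genes of at least 5 FPKM. The excess of Gnb3 over each other gene and its shares and ratios kept their direction in each alternative run. Whether same-numbered libraries were paired is not stated in the labels. Their deviations from the genotype means correlated across genes at 0.07, −0.09 and −0.12, which cannot decide it with 3 libraries per genotype. With the replicate block Gnb3 had an adjusted p of 0.00928, and 13 genes were called higher and 2 lower, against 29 and 4 in the main comparison. Genes called higher numbered 18 with rod marker scaling, 17 with a sex term and 17 with constant prior variance, and genes called lower numbered 2 with no filter on low values and 2 with a sex term. With 1 library left out, 9 to 14 genes were called higher and 2 to 4 lower: 14, 12 and 14 higher without knockout replicate 1, 2 or 3 and 9, 14 and 10 higher without wild-type replicate 1, 2 or 3, with 2 lower without knockout replicate 2 or 3 or wild-type replicate 3. Directions reversed only in genes and a ratio that were never called. Gnb1 and Gnb5 were at −0.1567 and −0.0463 with quantile normalization, −0.0302 and −0.0263 with rod marker scaling, and −0.0374 and −0.0242 within females, an alternative added after the data were seen, in which Gnat2 was at 0.0621. With 1 library left out the changes ran from −0.0466 to 0.0479 for Gnb1, −0.0296 to 0.0411 for Gnb5, −0.1558 to 0.0125 for Gngt1, −0.0046 to 0.0814 for Gngt2 and −0.1477 to 0.0094 for Gng13, and the knockout minus wild-type difference in the Gngt1 to Gnat1 ratio from −0.0157 to 0.00254. The cause was not tested. Without fragment counts, no counting error can be given, which matters most for Gnb4.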

Other observations

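The lean of genes around Gnb3 was followed outwards after the values within 100 kb had been seen. Over all genes tested, 7.83% had all knockout libraries above the wild-type libraries and 8.04% had all below. Between 100 and 500 kb from Gnb3, 2 of 22 tested genes were above and 0 below, with a median change of 0.05. Between 500 and 1000 kb 2 of 4 were above and 0 below (median 0.12), between 1000 and 5000 kb 4 of 52 above and 5 below (median −0.01), and between 5000 and 20000 kb 12 of 136 above and 9 below (median −0.01). Within 100 kb of the other subunit genes, 3 of 10 were above around Gnat1 (median 0.09), 1 of 10 around Gnb2 (median 0.10), 1 of 9 around Gnb1 (median 0.06) and 1 of 7 around Gnat2 (median 0.00), each with 0 below. None were above around Gnb4 (3 tested), Gnb5 (5), Gngt1 (2), Gngt2 (4) or Gng13 (8), while 2 were below around Gnb5 and 1 around Gng13. No neighbour in any of these windows was called, compared with 0.233% of all genes tested.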
